A study of Homo sapiens with 24 samples.

Results

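Depletion of PAX8 was compared between 786-M1A and OS-LM1 cells by RNA-seq, and what is described here is the difference between the responses of these 2 lines. PAX8 is a paired box transcription factor that sets and maintains the identity of the renal epithelial lineage. The members are all 24 libraries of the series, 12 from each line, and the measure is the interaction of line and construct: for each gene, the log2 fold change in OS-LM1 minus that in 786-M1A. A value above 0 means that a gene fell less, or rose more, in OS-LM1. Both lines are metastatic derivatives of established human clear cell renal cell carcinoma lines, 786-M1A of 786-O and OS-LM1 of OS-RC2. The study lists VHL mutations among the features of both lines. In each line, PAX8 was targeted with the RNA interference construct shPAX8-1 (4 libraries) or shPAX8-2 (4 libraries), and 4 further libraries carry the construct labelled sgNTC18. The cells were grown in RPMI with serum and RNA was taken before confluence. Nothing in the labels says that replicates were separate cultures, so p-values measure the spread between these libraries, which may be technical.

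The control sets a limit on every value below. sgNTC18 is named like a non-targeting guide RNA, whereas the study names a different construct, an RNA interference control, as the comparison for its shPAX8 cells, and the sgNTC18 libraries may come from another experiment. What shPAX8 changed and what differed between 2 experiments cannot be told apart within a line. A difference between experiments that was equal in both lines cancels in the interaction, and an unequal one does not. The interaction also equals the OS-LM1 to 786-M1A difference among shPAX8 libraries minus that among sgNTC18 libraries, and each of those differences was taken within a single kind of construct. The study's shPAX8 vectors are induced by doxycycline, and the labels do not say whether the sgNTC18 cells received it. A measurement bears on this limit: the read-through transcript TMEM189-UBE2V1 had 0 counts in all 8 sgNTC18 libraries and at least 48.3 CPM (the read count scaled to a common normalised library size) in all 16 shPAX8 libraries, in either line. Its means with shPAX8 were alike in the lines, 70 CPM in 786-M1A and 77.2 in OS-LM1. An arm difference that was unequal between the lines is described below for chromosome X. The median log2 level of X-linked relative to autosomal genes was 0.36 with sgNTC18 and -0.43 with shPAX8 in OS-LM1. In 786-M1A it was 0.12 and 0.22. The part of either in the results, or that of a difference in library preparation or counting between the arms, was not tested.

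The mature guide of each construct is shown because both act on the same messenger through different sites. Capitals mark the seed, bases 2 to 8 from the 5′ end, which leads target recognition in RNA interference.
shPAX8-1: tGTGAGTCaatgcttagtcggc
shPAX8-2: tAGAGTTGtgttaataatggag
In hg38 the shPAX8-1 site lies at chr2:113241690-113241711, in the coding part of exon 7 of the 12 exons of PAX8, which is transcribed from the minus strand. The shPAX8-2 site lies at chr2:113218122-113218143, in the 3′ UTR within exon 12. A full match to the 22 bases was found in transcripts of 1 gene, PAX8, for either guide. It was present in 10 of the 14 annotated PAX8 transcripts for shPAX8-1 and in 7 of the 14 for shPAX8-2.

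The libraries held between 11634381 and 52059337 counts. The 4 OS-LM1 sgNTC18 libraries held 32918675 to 37086285 and the 8 786-M1A shPAX8 libraries 11634381 to 19928545, which were the groups of highest and lowest median. Of 8 markers of the renal epithelium, not all of which are reported here, KRT18 had between 93.3 and 579 CPM and KRT8 between 32.6 and 386 CPM. PAX2 had 6.02 to 53.8 CPM, LHX1 2.31 to 27.5 and CDH16 only 0.276 to 6.03. The means of LHX1 and CDH16 were lower with shPAX8 in both lines. Of the markers of other cell types, all 7 of endothelium had at most 2.03 CPM in any library (CDH5 at most 0.0904). Of 7 leukocyte markers, CD68 had 76.5 to 399 CPM and the others at most 4.79, with CD3E at 0 and PTPRC at most 0.317. Of 7 fibroblast markers, PDGFRB had 0.0278 to 877 CPM, COL1A1 1.97 to 205, COL3A1 at most 16.6, LUM at most 8.56 and the others at most 1.17. Of 5 hepatocyte markers, SERPINA1 had 37.6 to 320 CPM, FGB 0 to 265 and the others at most 0.608 (ALB at most 0.497). The part of other cell types in the results was not tested. The first principal component, with 60.9% of the variance of log2 CPM, separated the lines, and the second (18.1%) the shPAX8 from the sgNTC18 libraries. The 4 786-M1A shPAX8-1 libraries fell into 2 pairs, replicates 1 and 2 (47.9 and 47.3 on the second component) and replicates 3 and 4 (70.1 and 70.1). Their counts differed by a chi-square per gene of 44.7 to 77.4 between the pairs and of 14.1 and 3.73 within them. The 786-M1A shPAX8-2 libraries showed a smaller split by the same replicate numbers, with 14.9 to 19.2 between the pairs and 3.96 and 11.7 within them.

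The responses of the 2 lines shared many genes and differed at many others. Of 15665 genes tested, 7520 (48%) had a different response at an adjusted p under 0.05 (edgeR quasi-likelihood test, Benjamini-Hochberg adjustment), and this is the meaning of a called difference here. In OS-LM1 relative to 786-M1A, 3723 (23.8%) were higher and 3797 (24.2%) lower. The difference was at least 1 on the log2 scale for 4405 of the called genes (28.1% of those tested), 2039 higher and 2366 lower. Each line on its own changed at a similar number of genes: 9780 (62.4%) in 786-M1A, 4994 rising and 4786 falling, and 9542 (60.9%) in OS-LM1, 4772 rising and 4770 falling. Without the 786-M1A shPAX8-1 replicates 1 and 2 the count of called differences was 7102, and without replicates 3 and 4 it was 8444. The median difference over all genes was -0.01, and the median responses were 0.04 in 786-M1A and 0.00 in OS-LM1.

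Both lines changed in the same direction in 5040 genes, 2492 rising and 2548 falling, which is 51.5% of those that changed in 786-M1A and 52.8% of those in OS-LM1. In 1354 genes (8.64% of those tested) both lines changed and in opposite directions, with 667 falling in 786-M1A and rising in OS-LM1 and 687 doing the reverse. Of these, 297 changed by at least 1 on the log2 scale in both lines. Among called differences, a response called in 786-M1A and not in OS-LM1 gave 1200 rising and 1090 falling genes, and a response called in OS-LM1 and not in 786-M1A gave 979 rising and 1028 falling. Both lines fell by different amounts in 569 genes with the larger fall in 786-M1A and in 386 with the larger fall in OS-LM1, and both rose in 397 and 367 genes respectively. Across the tested genes, which are not independent replicates, the 2 responses correlated at a Pearson r of 0.347 and a Spearman correlation of 0.393. No library is shared between them.

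The lines stood further apart in the shPAX8 libraries than in the sgNTC18 libraries. The OS-LM1 to 786-M1A difference was called for 8392 genes (53.6%) with sgNTC18 and for 12323 (78.7%) with shPAX8, where each line has 8 libraries against 4. The median absolute log2 difference, which does not depend on a threshold, was 0.59 with sgNTC18 and 0.90 with shPAX8. Among the 7520 called genes, the absolute line difference was larger with shPAX8 in 5323 and smaller in 2197. In 866 of them the line difference was called with either construct type and changed sign between them.

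**Figure D1:**
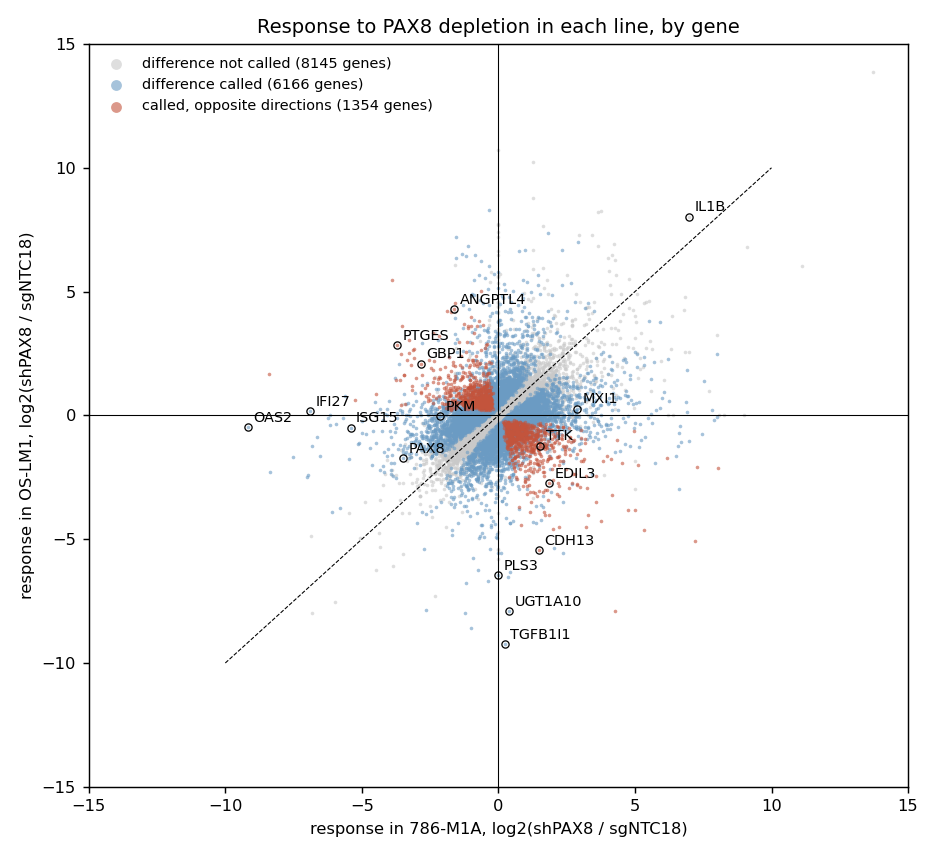
Log2 fold change of each of 15665 genes (points) with shPAX8 relative to sgNTC18 in 786-M1A (x axis) and OS-LM1 (y axis); the dashed line marks equal responses. Genes called with opposite directions (red, 1354) fill the upper left and lower right, OAS2, IFI27 and ISG15 lie far to the left near 0 in OS-LM1, and TGFB1I1, UGT1A10 and PLS3 far down near 0 in 786-M1A.

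PAX8 itself, the targeted gene (chr2:113215997-113278921), was reduced in both lines and less so in OS-LM1. In 786-M1A the 4 sgNTC18 libraries had 292, 393, 360 and 319 CPM, and the 8 shPAX8 libraries between 14.8 and 45.5 (median 31.4). In OS-LM1 the sgNTC18 libraries had 262, 279, 245 and 254 CPM, and the shPAX8 libraries between 59.8 and 97 (median 79.1). Neither line's groups overlapped, and every OS-LM1 shPAX8 library kept more PAX8 messenger than any 786-M1A one. The difference in response was 1.76 ± 0.33 (SE; adjusted p = 9.64e-05, edgeR). With either construct alone, against the same sgNTC18 libraries, it was 2.45 for shPAX8-1 and 1.26 for shPAX8-2. The unequal depletion stands beside all other differences, and its part in them was not tested.

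MYC rose in both lines, by 0.72 and 0.84, with a difference of 0.13 ± 0.21 (adjusted p = 0.653, edgeR). With shPAX8-1 alone this MYC difference was -0.23, and with shPAX8-2 alone 0.50. CCND1, which encodes cyclin D1, fell in OS-LM1 (log2 fold change -0.64) and was at -0.05 in 786-M1A, but the difference of -0.59 ± 0.33 was not called (adjusted p = 0.144, edgeR). This CCND1 difference was -0.27 with shPAX8-1 alone, and -0.81 and called with shPAX8-2 alone. For MYEOV, the neighbour of CCND1, the fall was larger in OS-LM1, by 0.91 ± 0.30 (adjusted p = 0.0137, edgeR). Its sgNTC18 and shPAX8 libraries did not overlap in either line.

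Components of the hypoxia-inducible factor pathway differed as well. These factors pair an oxygen-regulated subunit (HIF1A, or EPAS1, which encodes HIF2A) with ARNT. Where VHL is intact, it targets that subunit for destruction with the help of the EGLN hydroxylases. The study gives VHL mutations as a feature of both lines. Whether the VHL messenger counted here encodes a working protein was not tested. HIF1A rose more in OS-LM1, from between 32 and 39.1 CPM to between 112 and 187, than in 786-M1A, from between 8.13 and 9.31 to between 14.4 and 22.4 (difference 1.05 ± 0.20, adjusted p = 9.12e-05, edgeR). EPAS1 rose in both lines, by 1.06 in 786-M1A and 0.67 in OS-LM1, and that difference was not called (adjusted p = 0.197, edgeR). For EPAS1 it was -0.09 with shPAX8-1 alone, and -0.63 and called with shPAX8-2 alone. ARNT rose more in 786-M1A, with a difference of -0.71 ± 0.11 (adjusted p = 1.67e-05, edgeR), and VHL more in OS-LM1, with a difference of 0.57 ± 0.16 (adjusted p = 0.00448, edgeR). EGLN1 fell in 786-M1A and rose in OS-LM1 (difference 1.52). HIF3A, at most 1.22 CPM in any library, had a difference of -2.02. Over the 10 components, 5 were called higher and 3 lower in OS-LM1 (80% called, against 48% of all genes). Their median difference was 0.09 (0.30 with shPAX8-1 alone and -0.02 with shPAX8-2 alone).

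The largest positive differences were in interferon-stimulated genes. Interferon signals through factors of the STAT and IRF families, which bind a shared promoter element and switch on genes of antiviral defence. Of 45 tested genes of this list, 41 had a called difference, all 41 higher in OS-LM1 (23.8% of all genes were), and the median difference was 3.48. In 786-M1A, 44 of the 45 fell with shPAX8, with a median log2 fold change of -3.69. In OS-LM1, 16 fell and 11 rose, with a median of -0.34. The summed level of the list shows where this lies. It was 6940 to 7328 CPM in the 786-M1A sgNTC18 libraries, 1146 to 1740 in 786-M1A shPAX8, 1777 to 1945 in OS-LM1 sgNTC18 and 1762 to 2380 in OS-LM1 shPAX8 libraries. In this sum, which abundant members dominate, the 786-M1A sgNTC18 libraries stood alone at a high level. Gene by gene, 42 of the 45 were called lower and 1 higher in OS-LM1 with sgNTC18 (median line difference -2.13), and 27 higher and 8 lower with shPAX8 (median 1.04).

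OAS2, a sensor of double-stranded RNA (chr12:112978519-113011723), had the largest difference among genes that reached 5 CPM in an arm of each line. The 786-M1A sgNTC18 libraries had 322, 273, 278 and 249 CPM, and the 8 shPAX8 libraries between 0.108 and 0.963. In OS-LM1 the sgNTC18 libraries had 32.1, 40.2, 41.6 and 31.3 CPM, and the shPAX8 libraries between 12.6 and 41.6. The groups did not overlap in 786-M1A and overlapped in OS-LM1. The difference in response was 8.71 ± 0.57 (adjusted p = 6.4e-12, edgeR). IFI27 was high at the start in both lines. It fell in 786-M1A from between 82.7 and 110 CPM to between 0.497 and 1.2, and stayed between 65 and 102 CPM in every OS-LM1 library, with a difference of 7.07 ± 0.23 (adjusted p = 5.82e-18, edgeR). Its sgNTC18 levels were thus of similar size in both lines, which those of OAS2 were not.

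The transcription factors STAT2 and IRF9 differed by smaller amounts than many genes downstream of them. Their differences were 1.05 ± 0.21 and 1.14 ± 0.23, and that of IRF9 was 1.49 with shPAX8-1 alone and 0.73 with shPAX8-2 alone. ISG15, a ubiquitin-like protein, had a difference of 4.90 ± 0.29, OASL of 6.16 ± 0.44, OAS1 of 5.78 ± 0.42 and IFI44L of 5.84 ± 0.71, each of them called. EPSTI1 had the largest difference of the list, 10.09 ± 0.54 (adjusted p = 1.48e-13, edgeR). Its level in 786-M1A went from between 26.6 and 29.4 CPM to at most 0.209, and in OS-LM1 it rose from at most 1.53 to between 2.03 and 6.94. The 4 tested members with no called difference were IRF1, BST2, IFITM2 and HERC5. IRF1, BST2 and HERC5 were called with shPAX8-1 alone and IFITM2 with shPAX8-2 alone. Of these, HERC5 had at most 0.835 CPM in any OS-LM1 library.

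Some members turned in opposite directions. SAMD9 and its neighbour SAMD9L, restriction factors of antiviral defence, fell in 786-M1A by 3.09 and 3.57 on the log2 scale and rose in OS-LM1 by 2.68 and 2.50. GBP1, an interferon-induced GTPase, fell from 69.3, 55, 68.3 and 62.1 CPM to between 6.32 and 11.6 in 786-M1A. In OS-LM1 it rose from 28.8, 25, 31.6 and 25.4 CPM to between 93.3 and 142. Neither line's groups overlapped, and the difference was 4.92 ± 0.23 (adjusted p = 1.26e-14, edgeR). In all, 10 of the 45 members changed in opposite directions.

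Genes of MHC class I antigen presentation, which share part of this regulation, had smaller differences. Of 16 tested, 7 were called higher in OS-LM1 and 0 lower, with a median difference of 0.65 (0.75 with shPAX8-1 and 0.43 with shPAX8-2 alone). The share called in either direction, 43.8%, was near the 48% of all genes. All of these were higher, against 23.8% of all genes called higher. In 786-M1A 15 fell, and in OS-LM1 12 fell and 1 rose. The one that rose was B2M, the light chain of the class I complex, with a difference of 0.99. The largest called difference was that of NLRC5, the class I transactivator, at 1.52 ± 0.41. HLA-B and HLA-C fell in both lines, and their differences were not called, although that of HLA-B was with shPAX8-1 alone (0.70). Reads of these paralogs can be split between them by the counting.

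The element bound by STAT and IRF factors is shown because the 41 called differences of the list shared a direction. The 4 members shown were picked among called members that hold it before the annotated start. They therefore say nothing about its frequency in the list. OAS2, OASL, SAMD9L and OAS1 had larger differences than SAMD9 and are not shown. The responses within OS-LM1 went both ways, with 16 members falling and 11 rising. Each window is 60 bases of RefSeq promoter sequence, GRCh38.p14, 5′ to 3′ on the strand of the gene. The motif, GAAA, any 2 bases and GAAA, was searched on both strands, and capitals mark its last match before the annotated start. The IFI27 window also holds a match on the other strand, further from the start, which is left in lower case.
EPSTI1: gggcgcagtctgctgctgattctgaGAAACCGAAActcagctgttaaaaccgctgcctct
IFI27: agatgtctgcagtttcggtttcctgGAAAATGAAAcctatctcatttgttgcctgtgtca
IFI44L: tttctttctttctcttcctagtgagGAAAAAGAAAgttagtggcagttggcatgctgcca
SAMD9: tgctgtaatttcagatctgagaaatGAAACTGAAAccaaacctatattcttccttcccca
The windows lie at chr13:42992257-42992316 (minus strand), chr14:94110616-94110675 (plus), chr1:78620350-78620409 (plus) and chr7:93118081-93118140 (minus). The marked match begins 50 bases before the annotated start in EPSTI1, 95 in IFI27, 73 in IFI44L and 136 in SAMD9. Over windows of 300 bases around the start, 22 of the 35 tested members with a promoter in the table held the motif (62.9%), against 366 of 12171 tested genes (3.01%) and 1255 of all 35116 promoters (3.57%). Among members with a called difference the share was 20 of 32 (62.5%). Interferon acts on such genes through this element, so its higher frequency in the list says nothing about the responses measured here. No difference between called and other members was tested.

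**Figure D2:**
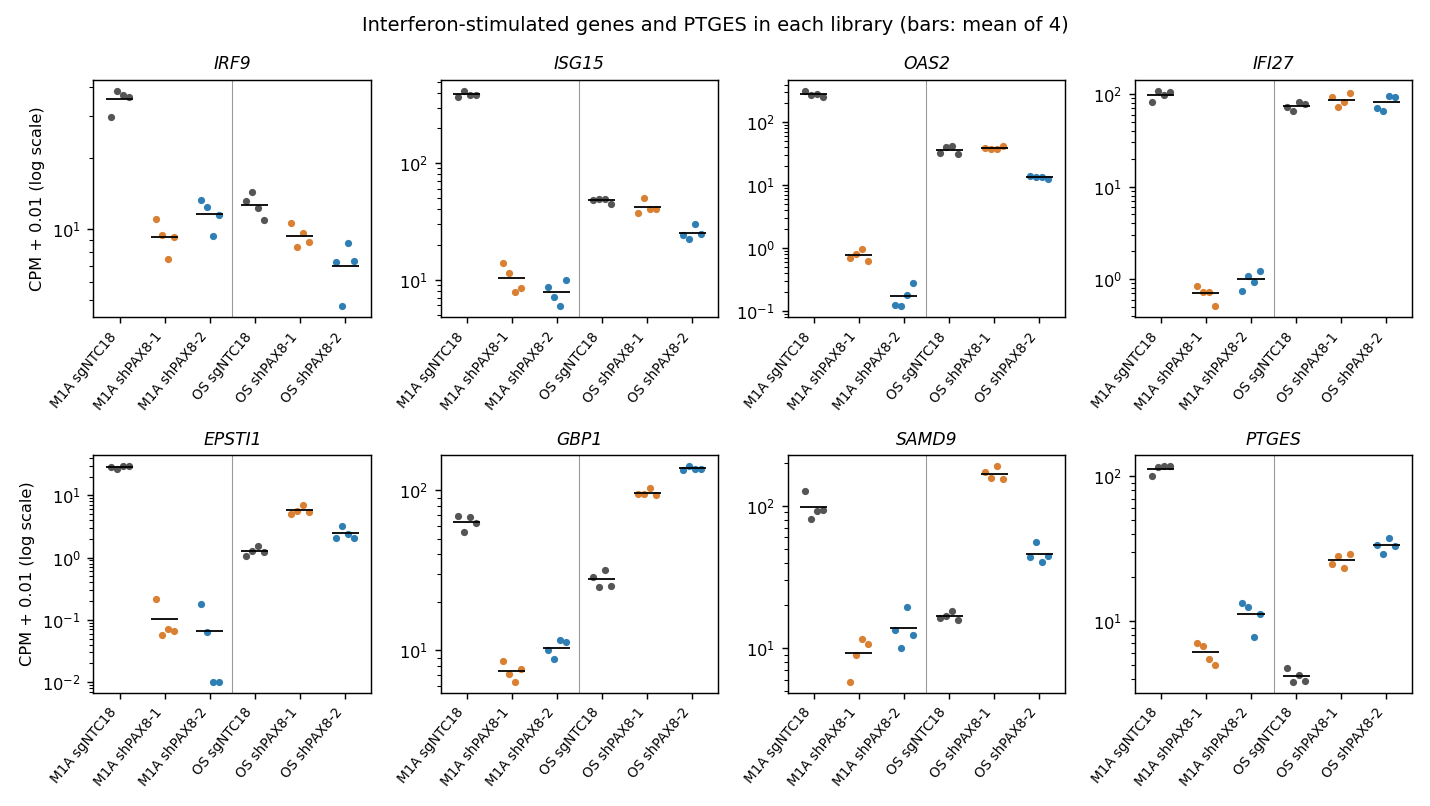
CPM (plus 0.01, log axis) of 8 genes in each of the 24 libraries, by line and construct; points are libraries and bars the mean of 4. For OAS2, IFI27, EPSTI1 and ISG15 the 786-M1A shPAX8 libraries lie far below those with sgNTC18, whereas GBP1, SAMD9 and PTGES fell in 786-M1A and rose in OS-LM1.

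Cytokines and other targets of NF-kB, the factor that drives inflammatory transcription, were the second group to be higher in OS-LM1. Of 26 tested, 17 were called higher (65.4%, against 23.8% of all genes) and 0 lower, with a median difference of 1.53. In OS-LM1 20 rose and 4 fell, and in 786-M1A 7 rose and 12 fell. The summed level went from between 1250 and 1659 CPM to between 3486 and 4697 in OS-LM1, with no overlap. In 786-M1A it was 1003 to 1239 with sgNTC18 and 893 to 1403 with shPAX8, which overlap.

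CCL2, a chemokine that attracts monocytes, had 35.1, 25.4, 40.1 and 32.7 CPM in the OS-LM1 sgNTC18 libraries and between 330 and 1225 in those with shPAX8. In 786-M1A it had 17.2, 18, 20.2 and 20.2 CPM against 8.15 to 21.5, which overlap. The difference was 4.80 ± 0.41 (adjusted p = 7.61e-10, edgeR). CXCL8, the neutrophil chemokine, rose in OS-LM1 from at most 33.7 CPM to at least 675. In 786-M1A its 4 shPAX8-1 libraries had 30.1, 37, 62.8 and 64.6 CPM and its 4 shPAX8-2 libraries 6.77, 6.47, 6.3 and 4.93, on either side of the sgNTC18 range of 8.07 to 11.5. The CXCL8 difference was 3.36 ± 0.73, with 2.64 for shPAX8-1 alone and 5.39 for shPAX8-2 alone. IL6 and CXCL2 fell in 786-M1A and rose in OS-LM1, with differences of 3.09 and 2.85. CSF2, the granulocyte and macrophage growth factor, had the largest difference of the list, 5.76 ± 0.61. It fell in 786-M1A from at least 10.2 to at most 3.19 CPM and rose in OS-LM1 from at most 2.34 to at least 6.51.

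PTGES, the prostaglandin E synthase (chr9:129738349-129753042), was among the genes with the largest changes in opposite directions. The 786-M1A sgNTC18 libraries had 100, 116, 117 and 117 CPM, and those with shPAX8 between 4.97 and 13.3. The OS-LM1 sgNTC18 libraries had 4.73, 3.78, 4.23 and 3.83 CPM, and those with shPAX8 between 23.3 and 37.3. The order of the lines was thus reversed, and the difference was 6.55 ± 0.31 (adjusted p = 1.84e-14, edgeR).

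Many genes of the AP-1 factors and of feedback on ERK signalling rose in both lines. Of 21 tested, 17 rose in OS-LM1 and 12 in 786-M1A, and 10 were called higher and 1 lower in OS-LM1 (median difference 0.66). The share called in either direction was 52.4%, near the 48% of all genes, and the share called higher was 47.6%, against 23.8%. EGR1, an immediate early factor, rose in OS-LM1 from between 4.99 and 13.1 CPM to between 21.5 and 86.5 and had a difference of 3.21 ± 0.60. The ERK phosphatase DUSP4 and the feedback inhibitor SPRY4 rose in both lines, with differences of 2.38 and 1.90. FOSL2 was the member called lower, with a difference of -0.75.

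Genes of S phase, when DNA is copied, fell in both lines: 36 of 43 in 786-M1A and 37 of 43 in OS-LM1, with medians of -1.08 and -1.18 on the log2 scale. The median difference was -0.07, and 2 members were called higher and 8 lower in OS-LM1 (23.3%, against 48% of all genes). Genes of G2 and mitosis, when the cell prepares to divide and divides, differed more often. Of 54 tested, 50 fell in OS-LM1 and 1 rose, whereas 20 fell and 10 rose in 786-M1A. In the difference, 43 were called lower and 3 higher in OS-LM1 (85.2% called, median difference -1.22). The G2 and mitosis median was -1.59 with shPAX8-1 and -0.84 with shPAX8-2 alone. Without the 786-M1A shPAX8-1 replicates 1 and 2 it was -1.26, and without replicates 3 and 4 -1.13, with 44 called lower in either case. In bulk RNA, fewer cells in a phase and less RNA per cell cannot be told apart.

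The summed level of the S-phase list went from 3044 to 3272 CPM down to 929 to 1573 in 786-M1A, and from 2665 to 3083 down to 1045 to 1701 in OS-LM1. That of the G2 and mitosis list fell in OS-LM1 from between 7208 and 7477 CPM to between 2778 and 3791. In 786-M1A the sgNTC18 libraries had 7797 to 8289 CPM, the shPAX8-2 libraries 5449, 5577, 6408 and 6009, and the shPAX8-1 libraries 6702, 7780, 9111 and 9240. The shPAX8-2 libraries of 786-M1A were thus all below the control range, and of those with shPAX8-1, replicates 1 and 2 lay below it and replicates 3 and 4 above.

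TTK, a kinase of the spindle checkpoint, had the largest negative difference of the list, -2.75 ± 0.46 (adjusted p = 2.36e-05, edgeR). It had 23.6, 17.1, 20.2 and 24 CPM in the 786-M1A sgNTC18 libraries and 26.9 to 127 with shPAX8. In OS-LM1 it had 17.8, 19.5, 19.1 and 20.4 CPM with sgNTC18 and 6.03 to 11 with shPAX8. In 786-M1A the shPAX8-1 libraries (50.7, 67, 117 and 127) were all above those with shPAX8-2 (27.4, 26.9, 43.2 and 32), and replicates 3 and 4 of shPAX8-1 above replicates 1 and 2. Without replicates 1 and 2 of that group the TTK difference was -2.80, and without replicates 3 and 4 -2.22. MKI67, the proliferation marker Ki-67, was at 0.06 in 786-M1A and fell by 1.37 in OS-LM1, with a difference of -1.44 ± 0.21. The topoisomerase TOP2A rose in 786-M1A and fell in OS-LM1 (difference -2.22). TMPO, a protein of the nuclear envelope, was called in the other direction, at 0.71, but not with shPAX8-1 alone (0.23, against 1.07 with shPAX8-2 alone). In the S-phase list the largest called values were those of PRIM1, a DNA primase subunit, at -1.15, and of the histone chaperone NASP, at 0.74.

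Targets of p53, the factor that halts the cycle after damage, were higher in OS-LM1 in 14 of 22 tested and lower in 0. This was 63.6% called higher, against 23.8% of all genes, with a median difference of 1.07. In 786-M1A 12 fell and 3 rose, and in OS-LM1 10 rose and 4 fell. CDKN1A, the cyclin-dependent kinase inhibitor p21, fell in 786-M1A from between 659 and 746 CPM to between 174 and 427, and rose in OS-LM1 from between 414 and 483 to between 590 and 690. Neither line's groups overlapped, and the difference was 1.73 ± 0.29 (adjusted p = 2.86e-05, edgeR). TP53I3 had the largest difference, 2.97 ± 0.33, and RRM2B, a ribonucleotide reductase subunit, had 1.88 ± 0.25. The list of G1 cyclins, kinases and inhibitors, which also holds CDKN1A, gave 4 higher and 4 lower of 17 (median -0.13), a share called of 47.1% that was near the 48% of all genes. CDK2 was the lowest at -1.09. The G1 median was 0.03 with shPAX8-1 alone and -0.14 with shPAX8-2 alone.

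Large changes in the other direction came from genes that nearly vanished in OS-LM1. TGFB1I1, a focal adhesion protein also known as Hic-5 (chr16:31472152-31477960), had 87.6, 69.8, 79.6 and 70 CPM in the OS-LM1 sgNTC18 libraries and at most 0.224 in all 8 with shPAX8. In 786-M1A it had 101, 155, 141 and 128 CPM with sgNTC18 and 71.3 to 221 with shPAX8, which overlap. The difference was -9.47 ± 0.48 (adjusted p = 5.34e-14, edgeR). Since some libraries had 0 counts, the size of that value rests on the few reads of the others. PLS3, an actin bundling protein on chromosome X (chrX:115561174-115650861), fell in OS-LM1 from between 99.8 and 121 CPM to between 0.77 and 1.9, and overlapped between the arms in 786-M1A (difference -6.44 ± 0.34). FOXP2, a forkhead transcription factor, and KIRREL3, an adhesion protein of the nephrin family, also fell in OS-LM1, with responses in 786-M1A that were not called (differences -6.32 and -4.74). UGT1A10, a glucuronosyltransferase, had a difference of -8.31 ± 0.52, but it shares its later exons with the rest of the UGT1A family, and the counting may have divided those reads.

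Other genes fell in OS-LM1 and rose in 786-M1A. CDH13, an anchored cadherin, had 183, 159, 185 and 176 CPM in 786-M1A sgNTC18 libraries and 447 to 533 with shPAX8. In OS-LM1 it had 8.51, 9.05, 9.65 and 11.2 CPM and then at most 0.476. Neither line's groups overlapped, and the difference was -6.93 ± 0.24 (adjusted p = 1.66e-17, edgeR). EDIL3, a matrix protein that binds integrins, started higher in OS-LM1 (193, 185, 216 and 197 CPM) than in 786-M1A (90.4, 66.2, 80.3 and 74.6) and ended lower, at 17.7 to 50.2 against 220 to 332 CPM. Its difference was -4.59 ± 0.34. The same directions were seen in PRTG (-6.61), a protein of the immunoglobulin superfamily, TRPC4 (-6.01), a cation channel, PRUNE2 (-5.22), the folate receptor FOLR1 (-3.63) and GPC4 (-5.23), a glypican on chromosome X.

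**Figure D3:**
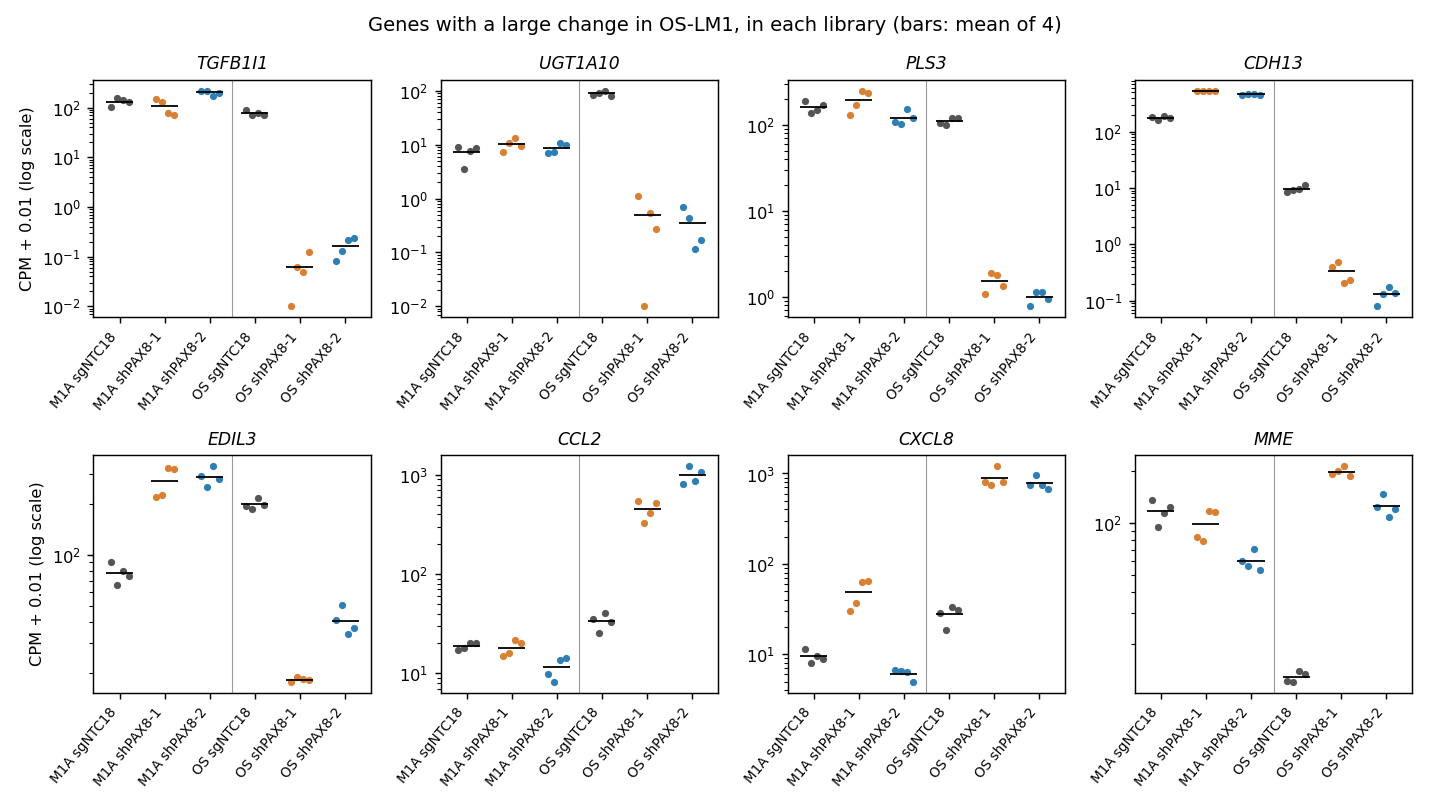
CPM (plus 0.01, log axis) of 8 genes with a large change in OS-LM1, in each of the 24 libraries by line and construct; points are libraries and bars the mean of 4. TGFB1I1, UGT1A10, PLS3 and CDH13 nearly vanish in the OS-LM1 shPAX8 libraries, CCL2, CXCL8 and MME rise there, and EDIL3 moves in opposite directions in the 2 lines.

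Matrix proteases and their inhibitors moved both ways, with 5 of 25 higher and 12 lower in OS-LM1 (68% called, against 48% of all genes). Their median difference was -0.63. The protease median was -0.23 with shPAX8-1 alone and -0.90 with shPAX8-2 alone. The collagenase gene MMP1 rose in OS-LM1 from between 2.02 and 2.75 CPM to between 2.94 and 139, with a difference of 5.11 ± 1.24. This was 5.53 for shPAX8-1 and 1.93 for shPAX8-2 alone. MMP13 fell in 786-M1A and rose in OS-LM1, where it reached at most 5.15 CPM (difference 6.34 ± 0.82; 7.18 and 4.05 with either construct alone). MMP9, a gelatinase, went from at most 0.498 to at least 1.56 CPM in 786-M1A and from at most 0.603 to at most 0.0626 in OS-LM1, and was called lower. PLAU, which encodes urokinase, rose in both lines and by 1.34 ± 0.15 more in OS-LM1.

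Extracellular matrix genes were lower in OS-LM1 in 15 of 29 and higher in 7 (75.9% called, against 48% of all genes), with a median difference of -0.95. Collagen VI chains fell in OS-LM1, COL6A1 from between 298 and 319 CPM to between 66.4 and 104, and did not fall in 786-M1A (difference -2.30 ± 0.25). FN1, fibronectin, fell in both lines and more in 786-M1A (1.00 ± 0.20), whereas FBN1, fibrillin, rose in OS-LM1 from between 33.9 and 35.6 CPM to between 129 and 225 and was at -0.10 in 786-M1A (difference 2.41 ± 0.18). COL1A1 rose in both and more in OS-LM1 (1.85). BGN, a proteoglycan on chromosome X, had at most 0.332 CPM in 786-M1A sgNTC18 libraries and 4.27 to 14.4 with shPAX8, against at most 1.6 in any OS-LM1 library, and was called lower. Epithelial genes were higher in 7 of 17 and lower in 2 (median 0.68), a share called of 52.9%. The keratins KRT8 and KRT18 fell in 786-M1A, and KRT18 rose in OS-LM1 from at most 225 to at least 374 CPM (differences 2.29 and 1.80). EPCAM had 0 counts in all 4 OS-LM1 sgNTC18 libraries and at most 0.835 CPM with shPAX8. ESRP2 had at most 0.381 CPM in any OS-LM1 library. Mesenchymal genes gave 5 higher and 4 lower of 15 (60% called, median 0.21), from TAGLN at -2.47 to S100A4 at 3.48. The filament gene VIM fell in OS-LM1 by 1.06 and was at -0.12 in 786-M1A.

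Of 15 renal lineage transcription factors tested, 5 were higher and 2 lower in OS-LM1 (median difference -0.16). The share called, 46.7%, was near the 48% of all genes. With shPAX8-1 alone the median of these factors was -0.32, and with shPAX8-2 alone -0.01. LHX1, a factor of early kidney development, fell in both by 2.11 and 1.94 on the log2 scale, from between 19.9 and 27.5 CPM to between 4.89 and 6.92 in 786-M1A and from between 11.3 and 13 to between 2.31 and 4.4 in OS-LM1, and its difference was not called. SIM1 was the lowest called member, at -1.64. HNF4A had 0 counts in all 8 786-M1A shPAX8 libraries and at most 2.75 CPM in any library. Of 14 tubule genes, 4 were higher and 1 lower (35.7% called; median 0.17, with 0.34 for shPAX8-1 alone and -0.04 for shPAX8-2 alone). MME, the brush border enzyme neprilysin, rose in OS-LM1 from between 12 and 13.9 CPM to between 107 and 212, and fell in 786-M1A, where its ranges overlapped (difference 4.21 ± 0.30, adjusted p = 2.99e-11, edgeR). ANPEP, another brush border peptidase, had a difference of 3.28. VCAM1 was the one called lower, at -0.97 (adjusted p = 0.042, edgeR), a call that was lost with a replicate block and in 14 of 24 fits that each left out 1 library.

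Of 23 glycolytic genes, 5 were higher and 6 lower in OS-LM1, with a median difference of 0.03 (0.23 with shPAX8-1 and -0.09 with shPAX8-2 alone). The share called, 47.8%, was near the 48% of all genes. PKM, pyruvate kinase, had 3322, 3800, 3730 and 3404 CPM in 786-M1A sgNTC18 libraries and 541 to 1001 with shPAX8. In OS-LM1 it had 4102, 3666, 3911 and 3402 CPM and then 3346 to 3998, so that only the 786-M1A groups were apart (difference 2.11 ± 0.20, adjusted p = 4.74e-09, edgeR). HK2, hexokinase, rose in 786-M1A from between 35.4 and 41.1 CPM to between 111 and 228, and overlapped in OS-LM1 (difference -2.07 ± 0.22). PGK1, on chromosome X, fell in OS-LM1 by 1.03 and was at -0.10 in 786-M1A. Without X-linked genes the glycolytic list gave 5 higher and 4 lower of 21.

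Other genes induced by hypoxia were lower in OS-LM1 in 13 of 28 and higher in 5 (64.3% called, against 48% of all genes), with a median difference of -0.56. With shPAX8-1 alone the hypoxia median was -0.24 (12 lower), and with shPAX8-2 alone -1.01 (16 lower). NDRG1 and VEGFA, the angiogenic growth factor, rose in 786-M1A and fell in OS-LM1 (differences -2.15 and -1.23). HILPDA, which coats lipid droplets, did the same, with a difference of -2.90 ± 0.22. MXI1, an antagonist of MYC that hypoxia induces, rose in 786-M1A from between 11.4 and 13.3 CPM to between 74.9 and 102, and in OS-LM1 from between 9.66 and 11.3 to between 11.1 and 13.7 (difference -2.61 ± 0.14). The matrix enzyme LOX rose in both lines and more in 786-M1A (-1.61). ANGPTL4, a secreted inhibitor of lipoprotein lipase, went the other way: from 11.5 to 15 down to 0.903 to 9.77 CPM in 786-M1A, and from 1.31 to 1.93 up to 20.6 to 53.3 in OS-LM1. In the MYC network, 2 of 11 were higher and 2 lower (median -0.19), MXI1 and MXD3 below and MAX and MXD4 above. The share called was 36.4%. With shPAX8-1 alone the MYC network gave 2 higher and 4 lower (median -0.28), and with shPAX8-2 alone 4 higher and 3 lower (median 0.25). The call of MAX was lost with shPAX8-1 alone (0.24, against 1.04), and MXD4 had 1.81 and 0.69.

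Genes of fatty acid and lipid droplet metabolism were lower in OS-LM1 in 10 of 26 and higher in 5 (57.7% called, against 48% of all genes). Their median was -0.56, with -0.76 for shPAX8-1 alone and -0.30 for shPAX8-2 alone. PPARG, the nuclear receptor of fat storage, rose in 786-M1A from between 7.46 and 10.5 CPM to between 56.2 and 123, and overlapped in OS-LM1 at 34.7 to 66.6 (difference -2.95 ± 0.30). PPARA and the kinase PDK4 also rose in 786-M1A (differences -1.81 and -2.22). Cholesterol genes gave 3 higher and 4 lower of 24, with a median difference of -0.38 that was -0.87 with shPAX8-1 alone and 0.37 with shPAX8-2 alone. It was -0.12 without replicates 1 and 2 of 786-M1A shPAX8-1, and -0.04 without replicates 3 and 4. The share called was 29.2%, below the 48% of all genes. SREBF1 was the highest, at 1.93, and HSD17B7 the lowest, at -1.50, with -2.03 for shPAX8-1 alone and -0.31, not called, for shPAX8-2 alone. Chaperones of the endoplasmic reticulum were lower in OS-LM1 in 8 of 14 and higher in 0 (57.1% called). Their median was -0.94, with -1.17 and -0.62 for either construct alone. HSPA5, the chaperone BiP, and HSP90B1 rose in both lines and more in 786-M1A (-0.82 and -1.29; HSPA5 -1.19 with shPAX8-1 alone and -0.35 with shPAX8-2 alone), and MANF rose in 786-M1A (-2.22). Targets of ATF4 gave 3 higher and 7 lower of 19 (52.6%; median -0.37, with -0.58 and -0.13 for either construct alone), with asparagine synthetase, ASNS, at -2.04 and ATF3 at 1.93. Of 5 metallothioneins tested, 4 were lower and 0 higher (80% called, median -1.97). MT2A rose in 786-M1A and fell in OS-LM1, and MT1G fell in OS-LM1 from at least 8.14 to at most 0.146 CPM and was at most 0.307 in 786-M1A.

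The remaining lists had medians between -0.29 and 0.36, and between 27.8% and 66.7% of their members were called, against 48% of all genes. Targets of NRF2 gave 5 higher and 5 lower of 18 (median -0.17, with -0.36 for shPAX8-1 alone and 0.18 for shPAX8-2 alone), from AKR1C1 at -4.26, one of near-identical paralogs whose reads may be divided, to GCLC at 1.45. TGF-beta and BMP signalling gave 5 higher and 7 lower of 21 (median -0.04), with TGFB1I1 the lowest and the receptor TGFBR3 the highest at 1.29. Targets of YAP and TEAD gave 5 higher and 7 lower of 18 (median -0.29), with ANKRD1 at -4.30 (-5.85 and -1.80 with either construct alone) and CTGF at 2.94 (1.65 and 3.82). The RNA interference machinery, on which the constructs depend, gave 3 higher and 4 lower of 13 (median -0.04), with AGO3 at -1.64 and DGCR8 at 0.95 (1.42 and 0.60 with either construct alone). Ribosome biogenesis gave 10 higher and 5 lower of 28 (median 0.36), with RRP12 at 1.40 and DKC1, on chromosome X, at -1.32. Cytosolic ribosomal proteins gave 5 higher and 21 lower of 83 (median -0.10), with RPS27L at 1.56 and RPS16 at -1.10. Subunits of oxidative phosphorylation gave 16 higher and 6 lower of 79 (median 0.16), with ATP5D at 1.28 and COX6B2 at -1.42, a call that was lost with shPAX8-1 alone (-0.97). With shPAX8-1 and shPAX8-2 alone, the medians were 0.05 and -0.16 for RNA interference, 0.21 and 0.47 for ribosome biogenesis and -0.23 and -0.05 for ribosomal proteins.

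**Figure D4:**
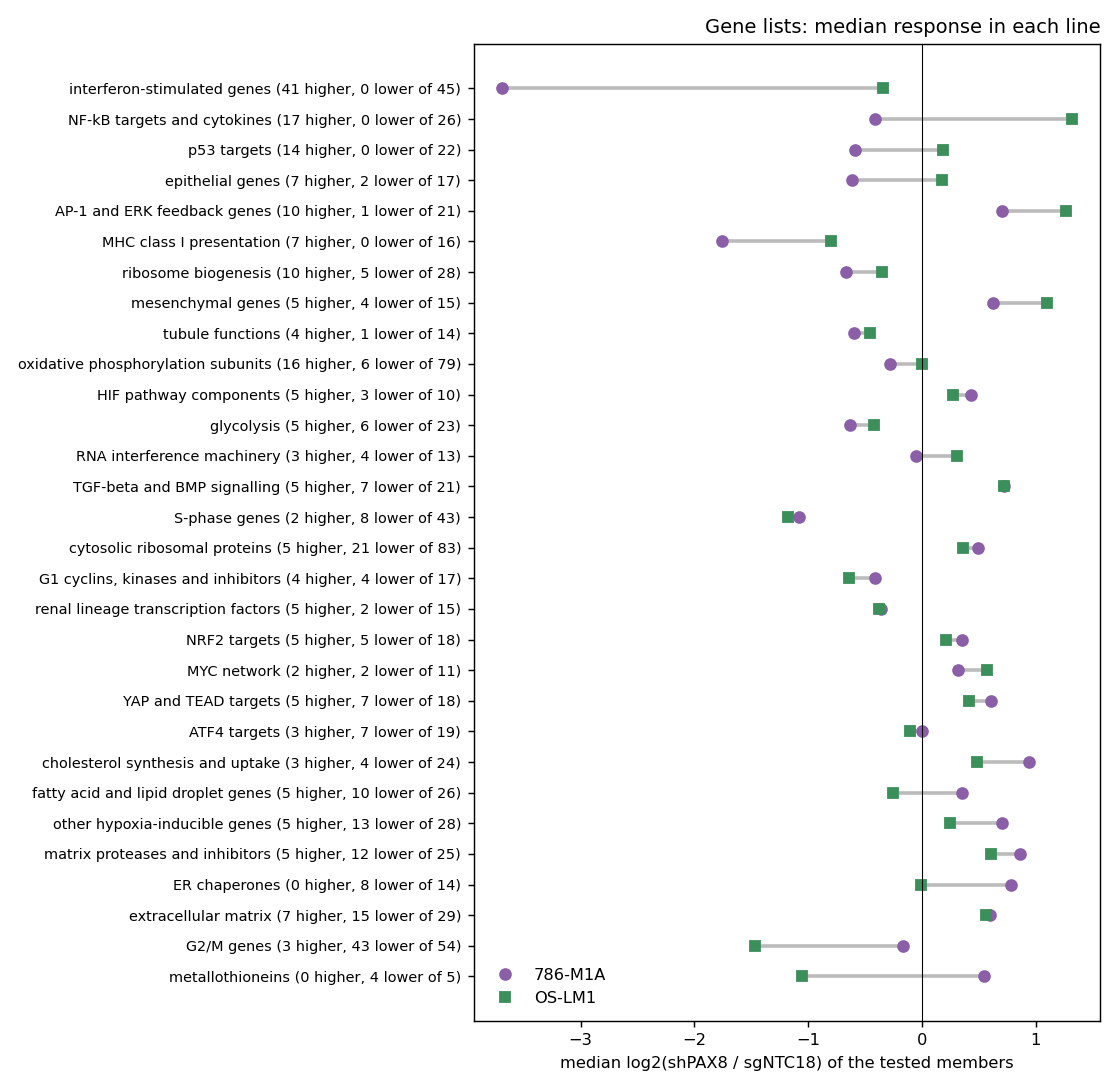
Median log2 fold change with shPAX8 of each of the 30 gene lists in 786-M1A and in OS-LM1 (points), over the tested members of a list. Interferon-stimulated genes lie at -3.69 and -0.34, and G2 and mitosis genes at -0.17 and -1.47.

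A whole chromosome stood apart, which was noticed after the values were seen. Of 523 tested genes on chromosome X, 299 were called lower in OS-LM1 and 23 higher, and the median difference was -0.79. The share called was 61.6%, against 48% of all genes, of which 24.2% were called lower. The other chromosomes had medians between -0.33 (chromosome 21) and 0.34 (chromosome 9). In OS-LM1, 321 X-linked genes fell and 37 rose (median -0.72), and in 786-M1A 163 rose and 132 fell (median 0.08). The median was below 0 in each of 8 segments along the chromosome, from -0.27 to -0.92. The median level of X-linked genes relative to autosomal genes, on the log2 scale, was 0.34 to 0.37 in the OS-LM1 sgNTC18 libraries and -0.47 to -0.37 in the 8 OS-LM1 shPAX8 libraries. In 786-M1A it was 0.09 to 0.14 with sgNTC18 and 0.15 to 0.25 with shPAX8. PLS3, GPC4, BGN, DKC1 and PGK1 lie on this chromosome. Without X-linked genes, 7176 of 15168 genes were called, and 7058 of them were called with all chromosomes in the fit. Whether the sgNTC18 and shPAX8 cells of OS-LM1 differed in the copies or the activity of this chromosome was not tested.

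**Figure D5:**
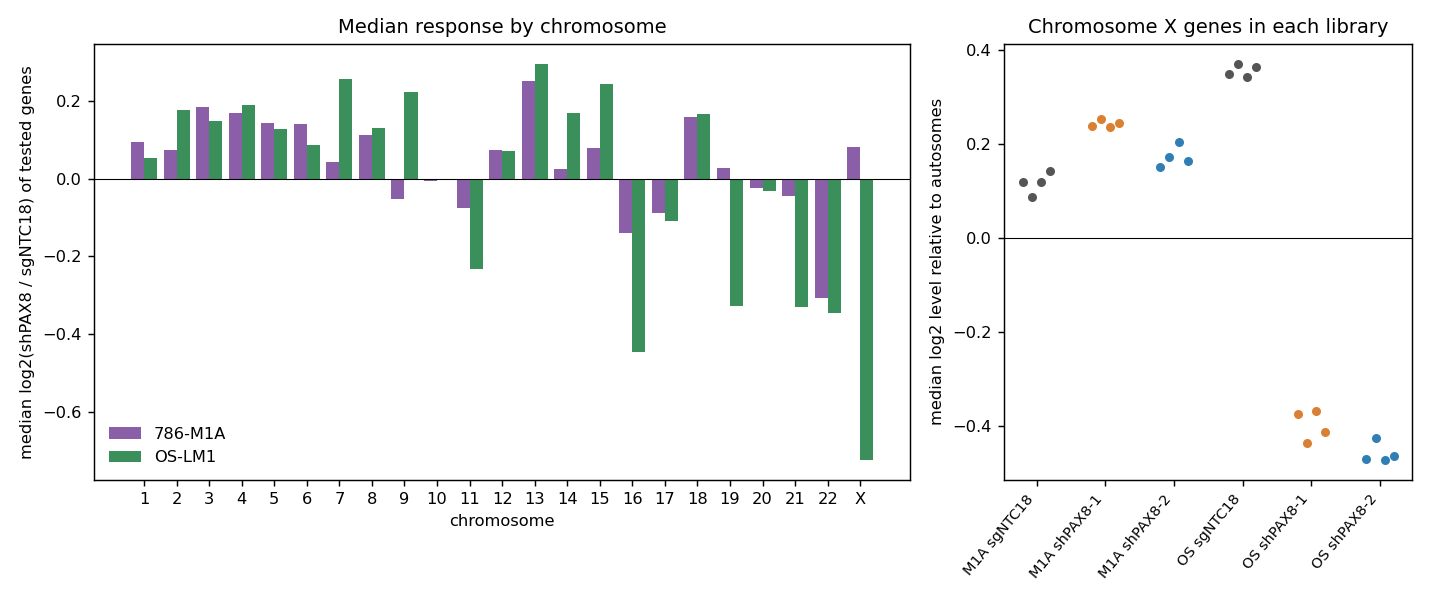
Median log2 fold change with shPAX8 by chromosome in both lines, and the median level of X-linked relative to autosomal genes in each library (log2). Chromosome X lies at -0.72 in OS-LM1 and 0.08 in 786-M1A, and the OS-LM1 sgNTC18 and shPAX8 libraries do not overlap.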

How the data were processed

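Poly(A) RNA of 24 libraries of 786-M1A and OS-LM1 cells was sequenced. Per the labels, a stranded mRNA kit was used, whereas the study's methods name another kit. Per the submitters' processing notes, the tools were Bowtie2 and RSEM with hg38 (GRCh38). Their versions and the gene annotation are not given in the sources used here. The authors deposited RSEM expected counts per gene, with TPM, FPKM and length beside them. The deposited TPM and FPKM were not tested.

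Expected counts were rounded, and genes without enough counts in any group of line and construct arm were removed (filterByExpr), which left 15665 of 26475. Library sizes were scaled by TMM, and a robust quasi-likelihood model over the 4 groups of line and arm was fitted with edgeR 4.0.16 in R 4.3.3, joining both shPAX8 constructs, with Benjamini-Hochberg adjustment over all tested genes and a threshold of 0.05. The study's own methods used DESeq2, with a different control, and DESeq2 1.42.0 was run as an alternative. Depth ranged from 11634381 to 52059337 counts. The scripts were checked on simulated counts. Of simulated differences of 1 on the log2 scale, 35 of 98 (35.7%) were called in the right direction, and of those of 2, 75 of 99 (75.8%). Calls among unchanged genes numbered 4. A difference that was not called is thus not shown to be absent.

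Genes were named by rule: PAX8, MYC, CCND1, MYEOV and HIF pathway genes; the 10 largest called differences in each direction at 5 CPM or more in an arm of each line; the 5 largest opposite changes in each direction; and the called extremes of each of 30 gene lists. Some genes of the rule are not reported here. Genes outside it were chosen after their values were seen. The members and lists were chosen with earlier results of these data known. No library pair of a group agreed within sampling noise (lowest chi-square per gene 3.73). Alternatives were other scalings, filters, tools, constructs, a replicate block and leaving out each library, or a pair of 786-M1A shPAX8-1 libraries.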

Additional observations from a re-analysis of the deposited data

Results flagged for a closer look

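A test of the difference between the lines itself, the interaction of line and arm, was past the threshold for 7520 genes, and 1354 of the genes tested changed in opposite directions. Among the genes fixed by name, the log2 difference of OS-LM1 from 786-M1A was 1.76 for PAX8, -0.91 for MYEOV, 1.05 for HIF1A, -0.71 for ARNT and 0.57 for VHL. Among the largest positive differences it was 8.71 for OAS2, 7.07 for IFI27, 6.55 for PTGES, 6.16 for OASL, 6.06 for SAMD9L, 5.91 for ANGPTL4, 5.84 for IFI44L, 5.78 for OAS1, 5.77 for SAMD9 and 5.76 for CSF2. Among the largest negative ones it was -9.47 for TGFB1I1, -8.31 for UGT1A10, -6.93 for CDH13, -6.61 for PRTG, -6.44 for PLS3, -6.32 for FOXP2, -6.01 for TRPC4, -5.23 for GPC4, -5.22 for PRUNE2 and -4.74 for KIRREL3. GBP1 (4.92), EDIL3 (-4.59) and FOLR1 (-3.63) were further genes with opposite changes.

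Single libraries lay apart from the other 3 of their group in 9 of 192 groups tested (4.69%), where chance gives about 1 in 20. In 786-M1A with sgNTC18, HIF1A had 9.31 CPM in replicate 4 (others 8.13 to 8.28), PTGES 100.1 in replicate 1 (116 to 117) and IFI44L 92 in replicate 1 (69.9 to 72.1). In OS-LM1 with sgNTC18, OASL had 9.46 CPM in replicate 3 (6.33 to 6.85) and TRPC4 7.18 in replicate 3 (5.92 to 6.06). With shPAX8, EPAS1 had 256 CPM in OS-LM1 shPAX8-2 replicate 3 (207 to 214) and ARNT 62.7 in OS-LM1 shPAX8-1 replicate 2 (54.4 to 55.6). MYEOV had 34.8 CPM in 786-M1A shPAX8-1 replicate 1 (23.8 to 25.3) and TRPC4 17.7 in replicate 4 of that group (15.5 to 15.8).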

How the results depend on the processing

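The count of 7520 genes with a different response was 7538 with DESeq2 size factors, 7918 with DESeq2, 7420 without the filter on low counts, 6833 with libraries thinned to the smallest total, 8706 with a GC offset and 9203 with each construct as its own group. With shPAX8-1 alone it was 8501 and with shPAX8-2 alone 8827, of which 6667 and 6760 were also called with both, all with the same sign. At an absolute log2 of at least 1, the counts were 4405 for the difference, 297 for opposite directions, 4850 for 786-M1A, 4408 for OS-LM1, and 4340 and 7117 for the line difference with sgNTC18 and shPAX8. At an adjusted p under 0.01, 775 genes changed in opposite directions.

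Same-numbered libraries did not all deviate together (correlations from -0.319 to 0.271), and the main fit treated libraries as unpaired. Between 786-M1A shPAX8-1 and shPAX8-2, however, same-numbered libraries correlated at 0.0365 to 0.271 (mean 0.17). Differently numbered ones of these groups had -0.365 to 0.312 (mean -0.0569). Whether these libraries were prepared in shared sets was not tested. With a replicate block 6743 genes were called, 6725 of them also called without it, and the line difference in sgNTC18 libraries was called for 5452. Leaving out 1 library at a time gave 6834 to 7807 genes for the difference, 1170 to 1453 for opposite directions, 9035 to 9844 for 786-M1A, 8838 to 9853 for OS-LM1, 7675 to 8706 for the line difference with sgNTC18 and 12108 to 12467 with shPAX8.

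MYC reversed with shPAX8-1 alone (-0.23). With shPAX8-2 alone MYC (0.50), CCND1 (-0.81) and EPAS1 (-0.63) passed the threshold. The cause was not tested. Of the values of named genes outside leave-one-out, 1101 kept direction and side of the threshold, 33 no longer passed and 7, these included, newly passed. In the leave-one-out fits 1937 kept both and 31 no longer passed, all of VCAM1, COX6B2, HNF4A, MT1G or HIF3A. Most named genes had been chosen as called in the main fit, and the largest ones also by an equal sign with either construct alone. Their kept directions were thus in part set by that choice, and all fits share sgNTC18 libraries. With chromosome X genes left out, chosen after seeing the data, 7176 were called. Depth limits genes near 0, such as HNF4A, EPCAM, MT1G and MMP9.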

Other observations

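A search over all genes for those with at least 20 CPM in every library of one arm and under 0.5 CPM in every library of the other, within a line, found few. In 786-M1A, CMPK2 and EPSTI1 were lost with shPAX8, CMPK2 from between 23.3 and 27.9 CPM to at most 0.188. In OS-LM1, TGFB1I1 and VAV3 were lost, VAV3 from between 26.8 and 37.4 CPM to at most 0.486. VAV3 also fell in 786-M1A, from a mean of 2.14 to 0.0266 CPM, and its difference was not called (adjusted p = 0.286, edgeR). IL1B, PLSCR4 and SLC47A1 were gained in OS-LM1. IL1B, the inflammatory cytokine interleukin 1 beta, rose to between 33.3 and 116 CPM from at most 0.331, and in 786-M1A it rose from at most 0.307 to between 3.53 and 22.8. Its difference was not called (adjusted p = 0.636, edgeR). PLSCR4, a scramblase, reached 29.4 to 45.1 CPM, and SLC47A1, a renal efflux transporter of organic cations, 24.3 to 31.3, against means of 0.686 and 0.569 CPM in 786-M1A with shPAX8. These genes were chosen after their values were seen.

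The correlation of the responses with the GC content of genes was -0.226 in 786-M1A and -0.305 in OS-LM1 (Spearman correlation across genes, which share libraries), and that of the difference was -0.0457.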
